A study of Homo sapiens with 10 samples.

Results

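Integrins are the cell surface receptors for the extracellular matrix, and laminins are the main adhesive proteins of the basement membrane that many of them bind. The genes of both families were read together in PC3 cells, a line established from a bone metastasis of a human prostate cancer. They were chosen by symbol alone, as ITGA followed by a number or by D, E, L, M, V or X (ITGA2B included), ITGB with a number, and LAMA, LAMB or LAMC with a number. This gave 38 of the 62656 genes of the deposited table, of which 18 encode integrin alpha chains, 8 integrin beta chains, and 5, 4 and 3 the laminin alpha, beta and gamma chains.

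Each integrin is a pair of an alpha and a beta chain, and the pair decides what the cell can hold on to. The chains of ITGA3, ITGA6 and ITGA7 make laminin receptors with that of ITGB1, and the ITGA6 chain also pairs with that of ITGB4 in the hemidesmosomes of epithelial cells. The chains of ITGA1, ITGA2, ITGA10 and ITGA11 make collagen receptors with that of ITGB1. Those of ITGA5, ITGA8, ITGAV and ITGA2B read RGD motifs in fibronectin, vitronectin or fibrinogen, and those of ITGAD, ITGAL, ITGAM and ITGAX belong to leukocytes with that of ITGB2. A laminin is a trimer of an alpha, a beta and a gamma chain. The normal prostate epithelium rests on a basement membrane, and loss of the chains of ITGB4 and LAMB3 is a known feature of prostate carcinoma.

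The cells were left without serum overnight and then kept for 24 h with 1 µM GW3965, a synthetic agonist of the liver X receptors (LXRs), or with DMSO, its vehicle, in RPMI-1640 with L-Glu. There were 5 libraries per condition, all of the 1 line PC3 and none carrying a transgene. No label says that the libraries came from separate cultures, so the p-values below measure the spread between these libraries, which may be technical. The study asked which genes LXR activation moves in a cell line with a mesenchymal character.

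The values were RPKM (a count of reads for each kilobase of gene, scaled by a factor for each library), and the reads behind them were recovered as whole numbers. The libraries held from 30429384 to 41636379 reads, and the scaling factors were not proportional to these totals. Treatment was visible in known LXR target genes: ABCA1, a cholesterol exporter, rose from a mean of 3.43 to 16.5 RPKM (log2 fold change 2.29, limma adjusted p = 0.000630). The epithelial keratins KRT8, KRT18 and KRT19 stood at means of 36.8, 49.8 and 140.1 RPKM in DMSO and the mesenchymal filament gene VIM at 65.6, whereas CDH1, which encodes E-cadherin, stood at 0.249. The prostate luminal gene KLK3 had no read in any library, and all 4 leukocyte markers lay under the limit for testing. No marker of epithelial, mesenchymal, endothelial, fibroblast or prostate luminal cells passed the test. On a principal component analysis of the reads, DMSO 1, GW3965 1 and GW3965 2 stood apart from the other 7 libraries along the first component, which held 48.5% of the variance, so that both groups were on its larger side.

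ITGA2 and its neighbour ITGA1 are shown first, because these collagen receptor genes lie side by side on one strand and had estimates of different size with GW3965. In GENCODE 29 on GRCh38, ITGA1 covers chr5:52787896-52959210 and ITGA2 covers chr5:52989326-53094779, both on the plus strand and with 30115 bases between them. The 250 bases upstream of each RefSeq start, on GRCh38.p14 and on the plus strand, are at chr5:52989102-52989351 for ITGA2 and chr5:52787666-52787915 for ITGA1. Both windows run past the GENCODE 29 start of their gene, since the RefSeq starts differ from it. Capitals mark GC boxes (GGGCGG on either strand).
ITGA2: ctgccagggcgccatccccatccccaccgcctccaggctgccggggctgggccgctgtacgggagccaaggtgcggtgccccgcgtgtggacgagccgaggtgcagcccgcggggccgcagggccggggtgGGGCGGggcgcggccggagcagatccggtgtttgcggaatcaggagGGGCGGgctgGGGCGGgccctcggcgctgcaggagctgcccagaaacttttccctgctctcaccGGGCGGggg
ITGA1: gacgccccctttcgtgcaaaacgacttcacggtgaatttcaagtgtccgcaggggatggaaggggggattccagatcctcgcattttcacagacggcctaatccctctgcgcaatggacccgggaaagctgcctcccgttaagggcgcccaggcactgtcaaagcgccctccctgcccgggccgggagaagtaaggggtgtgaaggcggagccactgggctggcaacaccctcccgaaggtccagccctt
The ITGA2 window holds 4 GC boxes, 26 CpG and 76.4% G or C, and its last GC box lies past the GENCODE 29 start of ITGA2. The ITGA1 window holds no GC box, 16 CpG and 62% G or C, and the median window of all 35116 in RefSeq has 58%. A GC box is found in 42.6% of all such windows.

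Of the 38 genes, 26 had such an upstream window, 33 windows in all, and 18 of these genes were expressed enough for the test below. ITGA3 and ITGB4 were among the genes without a window, so their upstream sequence was not searched. None of the windows held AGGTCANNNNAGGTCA, the direct repeat that LXRs bind with their partner RXR, a pattern present in 0.0142% of all windows. The single site AGGTCA lay in 1 window each of ITGAV and LAMA2 and in 12.1% of all windows. The AP-1 pattern TGANTCA was found at 2 places in the window of LAMA3 and at 1 in a window of LAMB3, against 6.57% of all windows. Motifs were searched on both strands, the single site overlaps the direct repeat, and a match describes letters and not a bound site.

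The alpha genes with the highest levels in PC3 cells were those of laminin receptors, ITGA3 and ITGA6. ITGB1, which pairs with most alpha chains, had the highest level of the 38 genes, at 94.3 ± 8.86 RPKM in DMSO (SD, n = 5). It was followed by ITGA3 at 75.6 ± 5.88, ITGB4 at 64.0 ± 8.49, LAMA5 at 46.1 ± 0.756, ITGA6 at 42.6 ± 2.64 and LAMB2 at 21.6 ± 1.91. At the gene lengths that the authors used, the DMSO libraries of ITGA3 overlapped those of both ITGB1 and ITGB4. From ITGB4 downwards, neighbours in this order did not overlap, the closest being LAMA5 with a lowest value of 45.4 and ITGA6 with a highest value of 44.9.

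**Figure D1:**
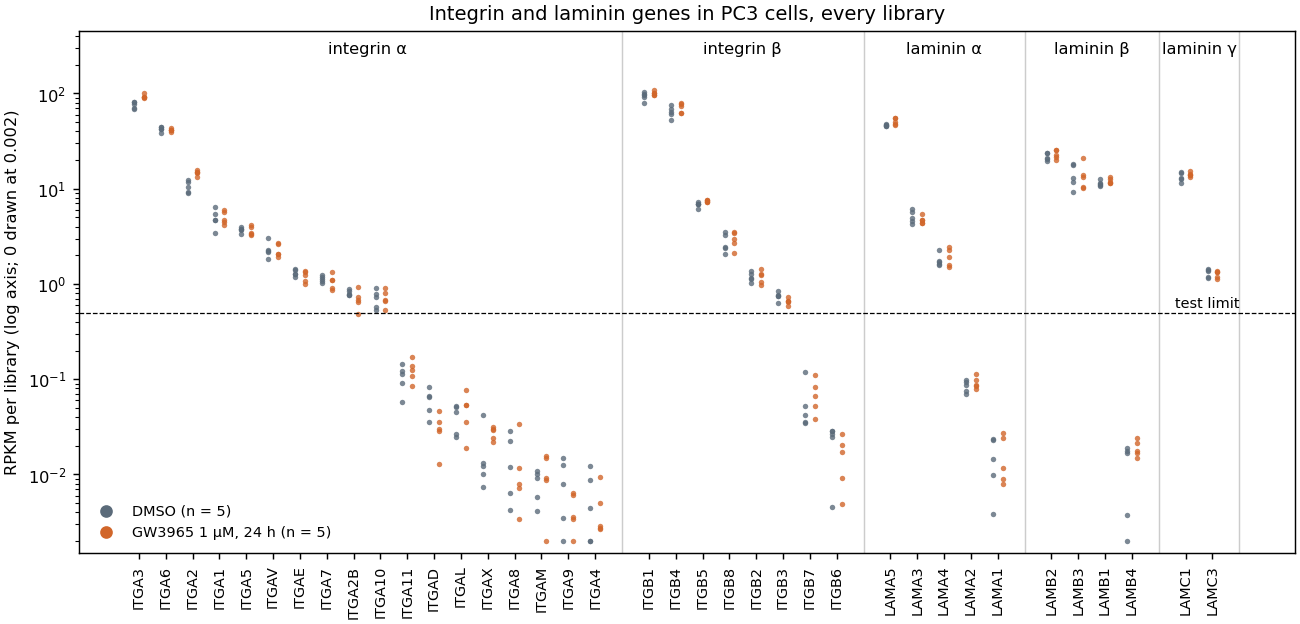
RPKM of 37 of the 38 integrin and laminin genes in each of the 10 libraries on a log axis, grouped by chain type, with DMSO in grey and GW3965 in orange. The 24 genes with means above the dashed test limit of 0.5 RPKM are separated by a gap from the 13 genes below it. The means of these 13 genes reach at most 0.115 RPKM. ITGA2B, with its mean above the limit, lies below it in GW3965 4, at 0.481 RPKM.

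An RPKM level depends on the gene length that the authors used, and the lengths behind the values could be read from them. For 25 of the 38 genes they lay within 3% of the exon length in GENCODE 29. They were over 1.5 times as long for 6 genes, among them ITGB1 with 14561 against 6011 bases, ITGAV with 19336 against 8211 and LAMB1 with 18592 against 8140. At the GENCODE 29 lengths, the DMSO mean would be 228 RPKM for ITGB1, 26.0 for LAMB1 and 5.44 for ITGAV. This comparison was added after the data were seen. It leaves every fold change as it is, since length is the same in both groups.

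Of the 38 genes, 25 had a mean of at least 0.5 RPKM and were tested with limma on log2(RPKM + 0.1) together with all 20402 genes above that limit. None passed an adjusted p of 0.05 (1 did with voom on the recovered reads and 2 with the first principal component as a covariate), which 0.157% of all tested genes did, and the lowest adjusted p of the 25 was 0.118. At an unadjusted p under 0.05, 5 genes were higher with GW3965, among them ITGA2, ITGA3, LAMA5 and ITGB5, and none lower, against 4.64% of all tested genes higher and 2.36% lower. The libraries of the groups did not overlap for ITGA2 and ITGA3, both higher with GW3965, and for no gene that was lower, against 1.35% and 0.49% of all tested genes. Of the 25 estimates, 14 were positive and 11 negative. Their median log2 fold change was 0.03, and that of all tested genes was 0.00, with 51.1% positive. In such bulk libraries, a level per cell and the number of cells that express a gene cannot be told apart.

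**Figure D2:**
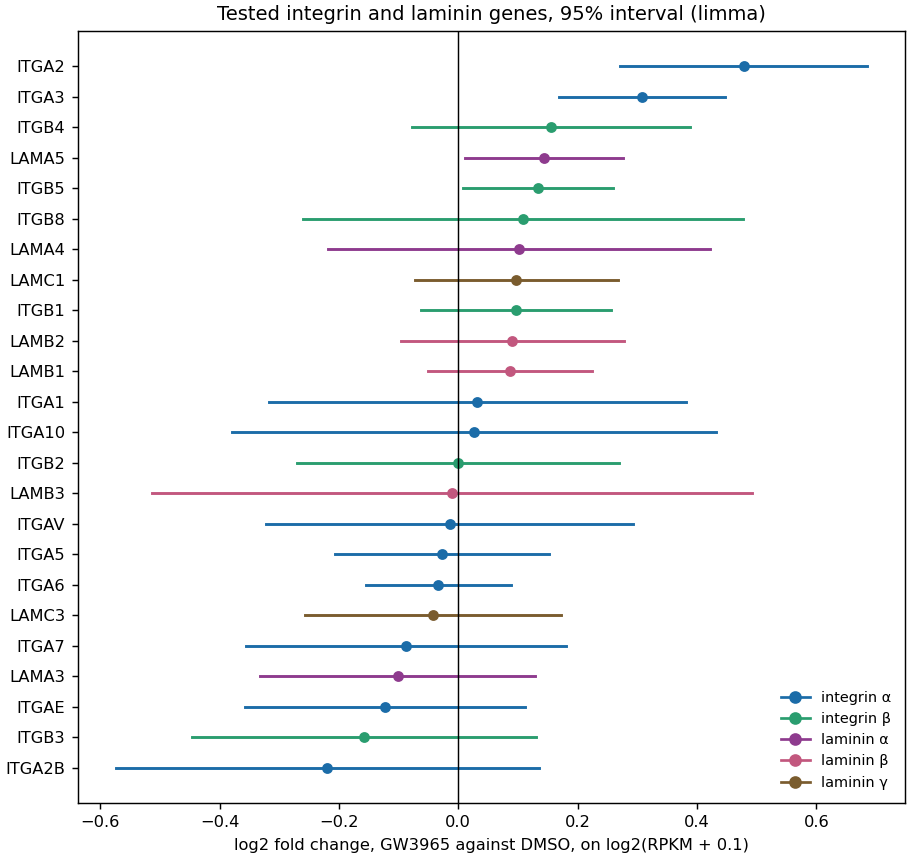
Log2 fold change of 24 of the 25 tested genes, GW3965 against DMSO, on log2(RPKM + 0.1), as points with 95% intervals from limma and coloured by chain type. The estimates run from -0.22 for ITGA2B to 0.48 for ITGA2, and the intervals of ITGA2, ITGA3, LAMA5 and ITGB5 lie above 0 before adjustment for the number of genes.

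Among the collagen receptors, ITGA2 had the largest estimate of the 25 genes. Its DMSO libraries stood at 11.9, 12.3, 9.35, 8.94 and 10.3 RPKM and its GW3965 libraries at 14.9, 14.8, 14.6, 13.1 and 15.7 RPKM. Every GW3965 library was above every DMSO library, and DMSO 1 and 2 were the nearest to them. The means were 10.6 ± 1.49 and 14.7 ± 0.948 RPKM (SD, n = 5 each), a log2 fold change of 0.48 (SE 0.09, 95% interval 0.27 to 0.68), or 1.39-fold. The limma p was 0.000350 and the adjusted p 0.118. ITGA2 was higher with GW3965 under all 22 alternative settings, with an adjusted p from 0.0292 to 0.280. It passed 0.05 under 2 of them, at 0.0292 with voom on the recovered reads and at 0.0484 with the first principal component as a covariate.

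ITGA1, the neighbour of ITGA2, had an estimate near 0, and whether both genes differ in their response was not tested. Its means were 4.93 ± 1.10 RPKM in DMSO and 4.99 ± 0.814 RPKM with GW3965 (log2 fold change 0.03, 95% interval -0.32 to 0.38, limma adjusted p = 0.988), and its libraries spread 1.87-fold from lowest to highest. DMSO 1, GW3965 1 and GW3965 2 were the 3 highest. ITGA1 shares 475 exon bases on the same strand with PELO, and others with a pseudogene, so that reads there could have been lost or shared between both genes. ITGA2 has no annotated overlap of exons. The ratio of ITGA2 to ITGA1 ran from 1.85 to 2.62 in DMSO and from 2.48 to 3.81 with GW3965, ranges that overlap. ITGA2 against ITGB1, the chain that it pairs with, gave a ratio from 0.0948 to 0.124 in DMSO and from 0.129 to 0.156 with GW3965, which do not. At the GENCODE 29 lengths the ratio was 0.0391 to 0.0510 in DMSO and 0.0530 to 0.0644 with GW3965. These ratios are given without a test. The third expressed collagen receptor gene, ITGA10, stood at 0.708 and 0.721 RPKM (log2 fold change 0.03, 95% interval -0.38 to 0.43).

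**Figure D3:**
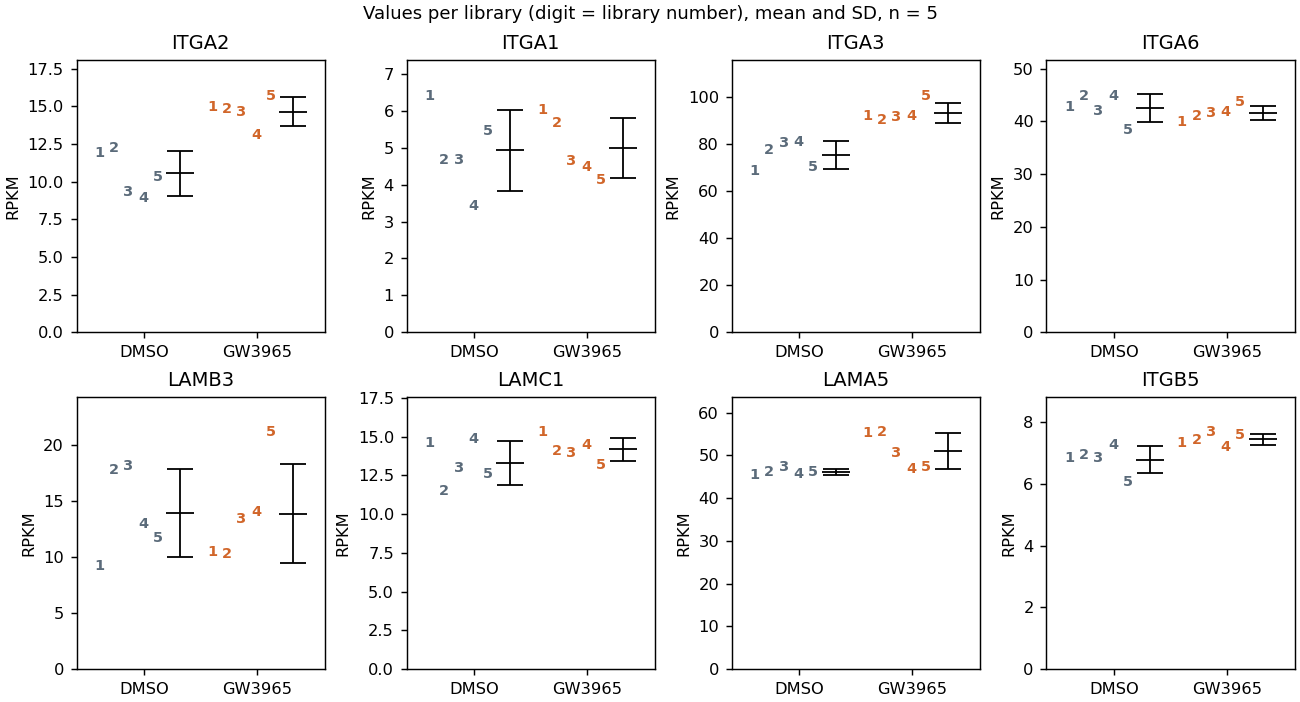
RPKM of 8 genes in each library, with the library number as the symbol (DMSO grey, GW3965 orange) and the mean ± SD beside the 5 values, on axes that start at 0. The groups are separated for ITGA2 and ITGA3, and overlap for their relatives ITGA1 and ITGA6 as well as for LAMB3, LAMC1, LAMA5 and ITGB5.

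ITGA3, whose chain binds laminins that hold the LAMA3 or LAMA5 chain, was the most abundant alpha gene and the other gene with separated groups. It stood at 68.5, 77.4, 80.6, 81.2 and 70.3 RPKM in DMSO 1 to 5 and at 92.1, 90.3, 91.8, 92.2 and 100.7 RPKM in GW3965 1 to 5. The lowest GW3965 library was thus above the highest DMSO library, and GW3965 5 was above the other 4 of its group. The log2 fold change was 0.31 (SE 0.06, 95% interval 0.17 to 0.45), or 1.24-fold, with a limma p of 0.000504 and an adjusted p of 0.128. Under the 22 alternatives the estimate lay between 0.27 and 0.33 and the adjusted p between 0.0134 and 0.305, with only the first principal component as a covariate passing 0.05. ITGA3 lies at chr17:50055968-50090481 on the plus strand (GENCODE 29, GRCh38) with no annotated overlap of exons.

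ITGA6, the alpha gene next in level and the partner of ITGB4, had an estimate near 0. It stood at 42.8, 44.8, 41.9, 44.9 and 38.5 RPKM in DMSO and at 39.9, 41.0, 41.6, 41.7 and 43.6 RPKM with GW3965, with the GW3965 libraries inside the DMSO range. The log2 fold change was -0.03 (95% interval -0.16 to 0.09, limma adjusted p = 0.957). The ratio of ITGA3 to ITGA6 was therefore between 1.599 and 1.92 in the DMSO libraries and between 2.201 and 2.31 in the GW3965 libraries. Of the summed RPKM of the 18 alpha genes, ITGA3 made up 48.7% to 55.0% in DMSO and 55.7% to 57.8% with GW3965, while ITGA6 made up 28.6% to 30.5% and 24.5% to 26.0%. None of these ranges overlaps between the groups, also at the GENCODE 29 lengths. The ITGA3 level enters the ratio and the alpha sum, so these are not observations apart from that of ITGA3. At the deposited lengths the ITGA5 share was also lower, at 2.48% to 2.67% in DMSO and 2.04% to 2.44% with GW3965. The ITGAE share was at 0.839% to 0.973% and 0.618% to 0.835%, and the shares of the other alpha genes overlapped. The ratio of ITGA3 to its partner gene ITGB1 did overlap, with 0.713 to 1.01 in DMSO and 0.904 to 0.963 with GW3965. At the GENCODE 29 lengths this ratio was 0.294 to 0.418 and 0.373 to 0.398, which overlap as well. These ratios and shares are described without a test. ITGA7, another laminin receptor gene, stood at 1.13 and 1.06 RPKM (log2 fold change -0.09, 95% interval -0.36 to 0.18).

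The receptors for RGD motifs were low next to these. ITGA5, the fibronectin receptor chain, stood at 3.70 ± 0.238 RPKM in DMSO and 3.64 ± 0.394 RPKM with GW3965 (log2 fold change -0.03, 95% interval -0.21 to 0.15). ITGAV stood at 2.31 and 2.27 RPKM (-0.01, 95% interval -0.32 to 0.29), and ITGA2B, the platelet chain, at 0.811 and 0.695 RPKM (-0.22, 95% interval -0.57 to 0.14). ITGAE, which pairs with ITGB7 on lymphocytes in epithelia, stood at 1.31 and 1.20 RPKM (-0.12, 95% interval -0.36 to 0.11). ITGB7 itself had at most 16 reads in a library. ITGAE shares exon bases on the opposite strand with HASPIN, and the strand setting of the count is not given in the sources used here.

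Among the beta genes, ITGB1 and ITGB4 together made up 92.7% to 94.0% of the summed level in a library. ITGB1 stood at 96.0, 103.9, 98.6, 80.2 and 92.6 RPKM in DMSO and at 95.7, 96.0, 100.9, 102.1 and 108.2 RPKM with GW3965. The groups overlapped, with DMSO 4 the lowest library of all (log2 fold change 0.10, 95% interval -0.06 to 0.26, limma adjusted p = 0.870). ITGB4, the hemidesmosome chain, stood at 63.9, 68.2, 75.1, 60.6 and 52.3 RPKM in DMSO and at 76.8, 74.5, 62.2, 62.7 and 79.8 RPKM with GW3965. These groups overlapped as well, and the interval of the difference ran from -0.08 to 0.39 around 0.16 (limma adjusted p = 0.848).

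ITGB5, which pairs with the ITGAV chain on vitronectin, had a smaller spread. It stood at 6.83, 6.94, 6.83, 7.25 and 6.06 RPKM in DMSO and at 7.32, 7.42, 7.67, 7.20 and 7.57 RPKM with GW3965. DMSO 4 alone overlapped the GW3965 range, and only with its lowest library. The log2 fold change was 0.13 (95% interval 0.01 to 0.26, limma adjusted p = 0.683), and its partner gene ITGAV had the estimate near 0 given above. The other tested beta genes gave estimates from -0.16 for ITGB3 over 0.00 for ITGB2 to 0.11 for ITGB8, another partner of ITGAV, with intervals that held 0. ITGB3 stood at 0.750 and 0.661 RPKM and shares 2266 exon bases on the same strand with AC068234.1, so that its level is uncertain.

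The laminin chains that PC3 cells expressed were led by that of LAMA5. LAMA5 made up 85.3% to 89.3% of the summed level of the laminin alpha genes in the 10 libraries. It stood at 45.4, 46.2, 47.4, 45.6 and 46.1 RPKM in DMSO and at 55.3, 55.5, 50.5, 46.9 and 47.3 RPKM with GW3965. The DMSO libraries were close together, and the highest GW3965 values came from libraries 1 and 2, which stand apart on the first principal component. The log2 fold change was 0.14 (95% interval 0.01 to 0.28, limma adjusted p = 0.660). Without the 3 libraries that stand apart it was 0.06 (adjusted p = 0.780).

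LAMA3 and LAMB3 encode chains of the laminin that epithelial cells hold through hemidesmosomes, and both had estimates just below 0. LAMA3 stood at 5.08 ± 0.770 and 4.70 ± 0.452 RPKM (-0.10, 95% interval -0.33 to 0.13). LAMB3 stood at 13.9 ± 3.91 and 13.9 ± 4.39 RPKM (-0.01, 95% interval -0.51 to 0.49), and its libraries spread 2.31-fold, from 9.15 RPKM in DMSO 1 to 21.1 RPKM in GW3965 5. The interval of LAMB3 was the widest of the laminin genes, and these libraries do not exclude a difference inside it.

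LAMB2 stood at 23.5, 19.5, 20.4, 23.7 and 20.8 RPKM in DMSO and at 25.3, 25.7, 22.5, 21.7 and 20.01 RPKM with GW3965, with overlapping groups (log2 fold change 0.09, 95% interval -0.10 to 0.28, limma adjusted p = 0.912). LAMB1 stood at 11.4 and 12.1 RPKM (0.09, 95% interval -0.05 to 0.22). At the deposited lengths LAMB2 made up 37.9% to 52.7% of the laminin beta sum and LAMB1 21.8% to 27.8%, and at the GENCODE 29 lengths 29.6% to 39.6% and 39.1% to 46.9%. Which of both is the higher beta gene therefore depends on the gene model. LAMC1, the usual gamma chain, stood at 13.3 and 14.2 RPKM (0.10, 95% interval -0.07 to 0.27). LAMA4 and LAMC3 were low, at 1.78 and 1.31 RPKM in DMSO, with estimates of 0.10 and -0.04 and intervals that held 0.

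The 13 genes under the limit were 8 alpha genes, 2 beta genes and 3 laminin genes, with at most 120 reads in a library. They included the leukocyte chains ITGAD, ITGAL, ITGAM and ITGAX and the lymphocyte chain ITGB7. ITGA4, a receptor chain for fibronectin and VCAM, and ITGA9 had at most 5 reads in a library. The others were the RGD receptor chain ITGA8, the collagen receptor chain ITGA11, ITGB6, which with ITGAV activates TGF-beta on epithelia, the embryonic laminin chain LAMA1, the muscle chain LAMA2, and LAMB4. For the 12 genes with over 3 reads in a library, the RPKM means were compared by an exact two-sided permutation test over all ways to split the libraries, whose smallest possible p is 0.00794. The lowest exact p was 0.0238, for ITGAD, with 46 reads in the DMSO libraries together and 24 in the GW3965 libraries, and the highest was 0.849, for ITGA4. With 12 such tests and no adjustment, ITGAD is given as a value and not as a change. In the limma fit without a limit on low values, none of the 13 passed and their lowest adjusted p was 0.859, with 1 at an unadjusted p under 0.05. ITGAM had at most 3 reads in any library. Its partner gene ITGB2 stood at 1.19 RPKM in both groups.

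The libraries that stand apart carried their own pattern over these genes. LAMB1, ITGA1, ITGB8, ITGAV, LAMA4 and ITGA10 were higher in all 3 of them than in each of the other 7 libraries, and LAMB3 and ITGAE were lower in all 3. These are 8 of the 25 tested genes, and 17.8% of all tested genes were so separated (1218 higher and 2412 lower). One of the 3 libraries is a DMSO library and the others are GW3965 libraries, so the pattern crosses the groups. ITGA2 and ITGA3 were not among these genes, and without the 3 libraries their log2 fold changes were 0.51 and 0.30.

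**Figure D4:**
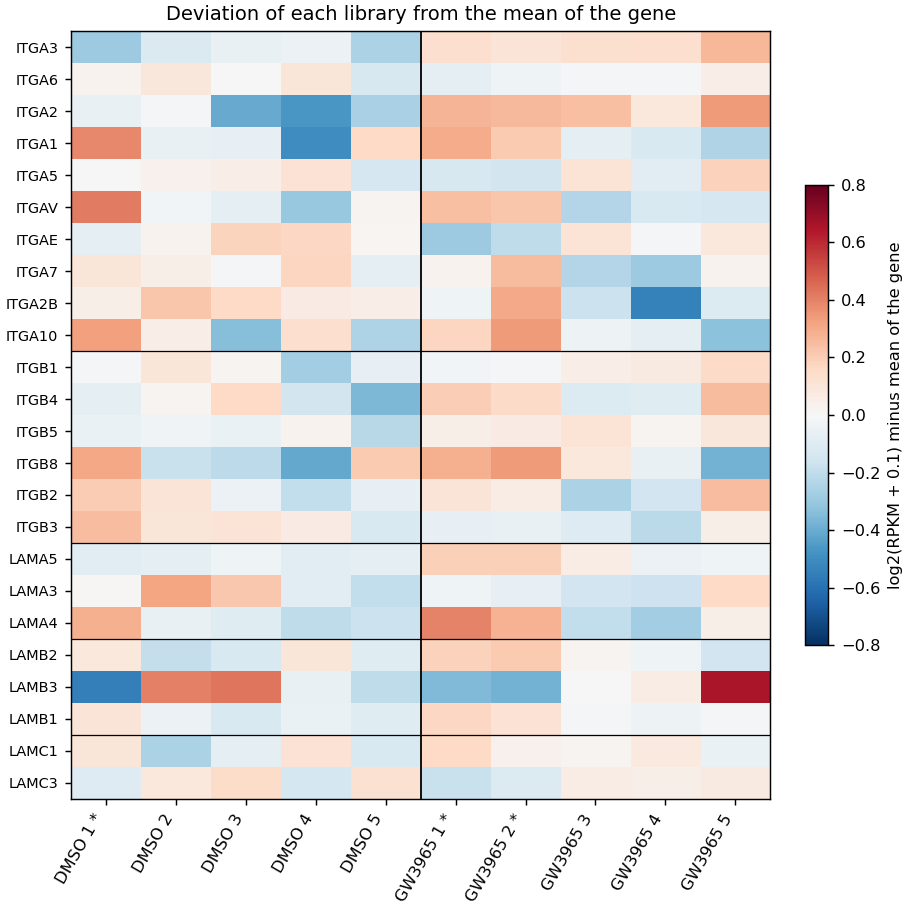
Deviation of log2(RPKM + 0.1) from the mean of each gene for 24 of the 25 tested genes (rows, by chain type and level) in the 10 libraries (columns), with red above and blue below the mean. Asterisks mark DMSO 1, GW3965 1 and GW3965 2, in which LAMB3 is low and ITGA1, ITGAV and LAMA4 are high, while ITGA2 and ITGA3 divide at the line between the groups.

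The proteins that link integrins to actin were read as a list of 36 adaptor and signalling genes, of which 31 were tested. None passed the limma threshold, which 0.157% of all tested genes did. The median log2 fold change was 0.02, and 18 were positive, against 51.1% of all tested genes. FERMT2, which encodes the integrin activator kindlin, went from 13.9 ± 0.753 to 15.4 ± 0.414 RPKM (0.15, limma adjusted p = 0.546). PTK2, which encodes focal adhesion kinase, went from 15.9 ± 0.680 to 17.3 ± 0.379 RPKM (0.13, limma adjusted p = 0.580). Both had separated groups and an unadjusted p under 0.05, as no other gene of the list did. Of all tested genes, 4.64% were higher at that unadjusted p and 1.35% were higher with separated groups. FERMT2 is also on a list that the study chose on these samples, so that its direction is not independent evidence. The lowest estimate was -0.09, for FERMT1.

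Partners of laminin in the basement membrane and its receptors other than integrins made up a list of 13 genes. Of these, 7 were tested and 1 passed, against 0.157% of all tested genes. The list was chosen with earlier results of these data known, so this count is not independent evidence. NTN4, a netrin that binds the gamma chain of laminins, rose from 21.9 ± 0.989 to 35.7 ± 1.33 RPKM, a log2 fold change of 0.70 (SE 0.05, 95% interval 0.59 to 0.81, limma adjusted p = 0.000124), and passed under all 22 alternatives. The laminin gamma gene LAMC1 had an estimate of 0.10 in the same fit. The other 6 tested genes had an unadjusted p above 0.05, among them DAG1, the dystroglycan gene, at 33.4 RPKM in both groups. The lowest estimate was -0.08 for HSPG2, the perlecan gene, with an interval from -0.62 to 0.46. The median over the 7 genes was 0.01.

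A list of 11 genes held proteins of hemidesmosomes or tetraspanin complexes beside the laminin-binding integrins, with the ITGB1 partners SLC3A2 and BSG added. Of these, 10 were tested and none passed, against 0.157% of all tested genes. The tetraspanin gene CD63 went from 73.8 ± 5.20 to 87.1 ± 5.86 RPKM (0.24, 95% interval 0.09 to 0.38, limma adjusted p = 0.326), the highest estimate of the list. CD151, the tetraspanin bound to the ITGA3 and ITGA6 chains, stood at 68.2 and 66.8 RPKM (-0.03, 95% interval -0.17 to 0.11). PLEC, the plectin gene that ties the ITGB4 chain to keratin, stood at 102.0 and 106.0 RPKM (0.06), and the lowest estimate was -0.05 for BSG. COL17A1, a defining collagen of hemidesmosomes, stood at 0.1099 RPKM in DMSO and was not tested. The median over the 10 genes was 0.02.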

How the data were processed

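RNA of PC3 cells was sequenced as single reads of 50 bases from stranded libraries of total RNA after removal of ribosomal RNA, while the labels name polyA RNA. The submitters' processing notes list HISAT2 2.1.0, hg38, HTSeq 0.11.2 and DESeq2 1.22.2, whereas the study's methods name the mouse genome. All gene identifiers were human. The annotation release and the strand setting are not given in the sources used here. The authors deposited RPKM values of 62656 genes in 10 libraries, of which 15119 were 0 throughout.

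Reads were recovered as the whole numbers in the ratio of a gene's values across libraries. Of the values above 0, 99.9974% came out whole within 0.001. The scale of 1 gene, RN7SL1, was set from its length in GENCODE 29, and the 7SL RNAs took 10.5% to 18.2% of the reads. No libraries of 1 group agreed within counting noise (chi-square per degree of freedom from 7.47 to 84.4). Counting limits cover counting error only.

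The main test was limma 3.58.1 with a variance trend (R 4.3.3) on log2(RPKM + 0.1), which understates changes of low genes, for the 20402 genes whose mean reached 0.5 RPKM. It was two-sided, with Benjamini-Hochberg adjustment over all of them and a threshold of 0.05. The procedure was tested on simulated data. Tables were read with Python 3.11.15 and pandas 2.3.3. Genes with at most 3 reads in every library were given no fold change. Principal components used the 500 most variable genes among those with 100 reads or more on average, 1 of them an integrin or laminin gene.

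Some results that the naming rule would give are not reported here. The integrin and laminin genes are otherwise named. Values in each library are given for the 6 highest and for those with an unadjusted p under 0.05 or with separated groups. Of the other lists, genes past the threshold or with an unadjusted p under 0.05 and both ends are named, and others were added as context after their values were seen. The members and lists were chosen with earlier results of these data known. Alternatives were other pseudocounts (1 and 0.01), filters (none, a mean of 1), scaling by median of ratios or quantiles, the replicate number as a block, no trend, library weights, the loss of each library or of those that stand apart, the first component as a covariate, and voom on recovered reads.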

Additional observations from a re-analysis of the deposited data

Results flagged for a closer look

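Of the 50 groups of 5 libraries examined (25 genes in 2 conditions), 1 held a library far from the others by Dixon's criterion, and chance gives about 1 in 20. It was ITGA3 with GW3965, in which library 5 stood at 100.7 RPKM and the other 4 at 90.3 to 92.2. The gap was 0.803 of the range of the group, against a limit of 0.71. Without this library the log2 fold change of ITGA3 was 0.28 (limma adjusted p = 0.305), and every remaining GW3965 library was still above every DMSO library.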

How the results depend on the processing

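Under 22 alternatives, 17 of the 25 tested integrin and laminin genes had 1 sign throughout, ITGA2, ITGA3, LAMA5 and ITGB5 among them. The count past the threshold was 0 except for 2 with the first principal component as a covariate (ITGA2 and ITGA3) and 1 with voom (ITGA2). At an unadjusted p under 0.05 it was 5, and 3 under quantile normalization, without a trend and without the libraries that stand apart, with 3 to 5 when single libraries were left out. The median log2 fold change of the genes ran from 0.0148 to 0.112 when single libraries were left out, the highest without DMSO 1. Over all genes, 32 passed, and 21 without a filter, 20 without a trend, 56 with library weights, 18 without the libraries that stand apart, 155 with the first principal component and 63 with voom. With single libraries left out this count ran from 17 (without GW3965 2 or GW3965 4) to 38, with 18 without DMSO 3 and 19 without GW3965 3. The replicate numbers did not pair the libraries: deviations of the same number correlated from -0.138 to 0.160, and only DMSO 4 correlated best with its own number. With a replicate block 16 genes passed, none of them an integrin or laminin gene.

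Estimates near 0 changed sign. Without the libraries that stand apart, the log2 fold change was 0.0927 for LAMB3, -0.0265 for ITGA1, 0.0516 for ITGA5, -0.0072 for LAMA4, 0.0074 for LAMC3, -0.051 for ITGA10 and 0.0247 for FERMT1. With the first principal component it was 0.0736 for LAMB3, -0.0429 for ITGA1 and -0.0163 for ITGA10. With library weights it was -0.0507 for ITGA1, 0.0134 for ITGA5 and 0.0197 for BSG. For ITGB2 it was 0.00094 with a pseudocount of 1 and 0.018 under quantile normalization. With single libraries left out, it ran from -0.175 to 0.0954 for LAMB3, -0.0891 to 0.132 for ITGA1, -0.0761 to 0.0054 for ITGA5, -0.0925 to 0.0867 for ITGAV, -0.0625 to 0.063 for ITGB2, -0.0559 to 0.112 for ITGA10, -0.203 to 0.0797 for HSPG2 and -0.0976 to 0.0137 for BSG. The cause was not tested. Scaling alternatives moved the median of all genes by -0.0027 (median of ratios) and -0.0074 (quantile). The 13 genes under the limit had at most 120 reads in a library, which leaves small differences in them not detectable at this depth.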
